A study of Mus musculus with 12 samples.

Results

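The Notch receptors Notch1, Notch2, Notch3 and Notch4, the ligands Jag1, Jag2 and Dll1, and the target genes Hes1, Heyl and Hey1 were examined in fetal mouse gonads. A gene was represented by the transcript cluster of the array that carries its symbol alone, and by the brightest such cluster where there were several. Each of the 10 genes had 1 such cluster, among 30176 gene symbols measured. The samples were gonads of embryonic day (E) 12.5 embryos on a C57BL/6 background, from crosses of mice heterozygous for both Amh and Inhbb. Control XY gonads (testes) and control XX gonads (ovaries) were Amh+/+; Inhbb+/+. The dKO XY gonads were Amh-/-; Inhbb-/- testes, which lack both genes in every cell of the embryo from conception. Each group had 4 arrays. The gonads had been separated from the mesonephros, the neighbouring fetal kidney tissue. The stage was taken from the labels; the data statement of the study links the series to a later one.

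In the Notch pathway, a ligand of the Jagged or Delta-like family on one cell binds a Notch receptor on its neighbour. The receptor is then cut, first by an ADAM protease and next by the gamma-secretase complex, and its intracellular part joins the DNA-binding protein RBPJ to switch on targets such as the Hes and Hey repressor genes. In the fetal mouse testis, Notch signalling is known for keeping interstitial progenitor cells from becoming Leydig cells, the androgen-producing cells of the interstitium. It is also used by blood vessels and by the mural cells around them.

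The unit throughout is the log2 intensity as deposited, so that a difference of 1 is a 2-fold change. The targeted gene Amh read 5.59 to 5.90 on the dKO XY arrays, below the medians of their negative control probe sets (6.36 to 6.52), so that its fall is a bound. Set against those medians, it was at least 37.5-fold lower in dKO XY than in control XY gonads (adjusted p = 0.000372), and Inhbb fell by 0.59 (adjusted p = 0.035, limma with Benjamini-Hochberg adjustment over 65956 transcript clusters, as for every adjusted p of a gene). Arrays varied in signal contrast, which is how far the positive control probe sets lay above the negative ones on average. It lay between 3.70 and 4.44 in control XY, between 2.48 and 3.83 in dKO XY and between 3.21 and 3.65 in control XX arrays. Control XX differed from control XY by -0.66 in signal contrast (two-sided exact permutation test, p = 0.0286, the smallest that 4 against 4 arrays can give) and dKO XY from control XY by -0.96 (p = 0.0571). The differences of all transcript clusters from control XY gonads had a median of 0.17 in dKO XY and of 0.12 in control XX. For the 10 genes each called difference is also given relative to that median, named the median of all clusters below. For other genes that value is not given. The shift was not the same for all probe sets. Positive control means ran from 10.56 to 11.05 on control XY arrays and from 9.34 to 10.48 on dKO XY arrays. The array medians of the clusters ran from 6.02 to 6.20 and from 6.20 to 6.52 in the same order. A value relative to the median of all clusters thus does not allow for the brightness of a gene.

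Against control XY testes, 4 of the 10 genes were lower in dKO XY testes (Jag1, Notch2, Heyl and Hes1), 1 was higher (Dll1), and 5 did not pass the test. Of all transcript clusters, 9.8% were lower and 16.7% higher in this comparison, 26.5% in either direction. The median difference of the 10 genes was -0.28, beside 0.17 for all clusters. The 4 dKO XY arrays lay wholly below the control XY arrays for Notch2 and Jag1, as for 8.24% of all clusters, and wholly above them for Notch1 and Dll1, as for 16.2% of all clusters. The number of clusters called was far from stable. It was 17501 over all arrays, and 3239, 110 and 3520 without control XY 2, 3 and 4, then 78, 28065, 197 and 7986 without dKO XY 1, 2, 3 and 4. The lower share of the calls was 36.9% as deposited, 53.9% after quantile normalization and 80.5% with the array medians aligned. Quantile normalization left 1 of the 10 genes lower, Jag1, and 0 higher by limma (4 and 0 at an unadjusted p under 0.05), beside 1.48% and 1.27% of all clusters. With the medians aligned 5 were lower, Notch3 in addition to the 4, and 0 higher (6 and 0 unadjusted), beside 16.9% and 4.11%. In the comparison of control XX with control XY gonads, 1 of the 10 genes, Hes1, passed the test and was lower, beside 1.34% of all clusters lower and 1.95% in either direction. The control XX arrays lay wholly below the control XY arrays for 4 genes (Notch2, Jag1, Hes1 and Heyl), as for 5.76% of all clusters, and wholly above them for 0, beside 7.98%. Here 1 gene was lower after quantile normalization (Jag1, beside 1.14% of all clusters) and 2 with the medians aligned (Jag1 and Hes1, beside 1.26%). Of the 10 genes 0 were called between dKO XY and control XX gonads by the limma test, which called 0.0895% of all clusters higher and 0.126% lower, 0.215% together, and 0 of the 10 reached an unadjusted p under 0.05. After quantile normalization 0 were called as well, beside 0.176% higher and 0.18% lower, and 2 of the 10 were higher in dKO XY at an unadjusted p under 0.05. The arrays of these groups overlapped for all 10 genes, while 1.92% of all clusters were wholly higher and 2.23% wholly lower in dKO XY. Samples are described as biological replicates by the study, but how many gonads each held is not given in the sources used here, and a p-value here reflects only how these samples spread. In whole gonads, fewer cells of a type and less RNA per cell cannot be told apart.

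**Figure D1:**
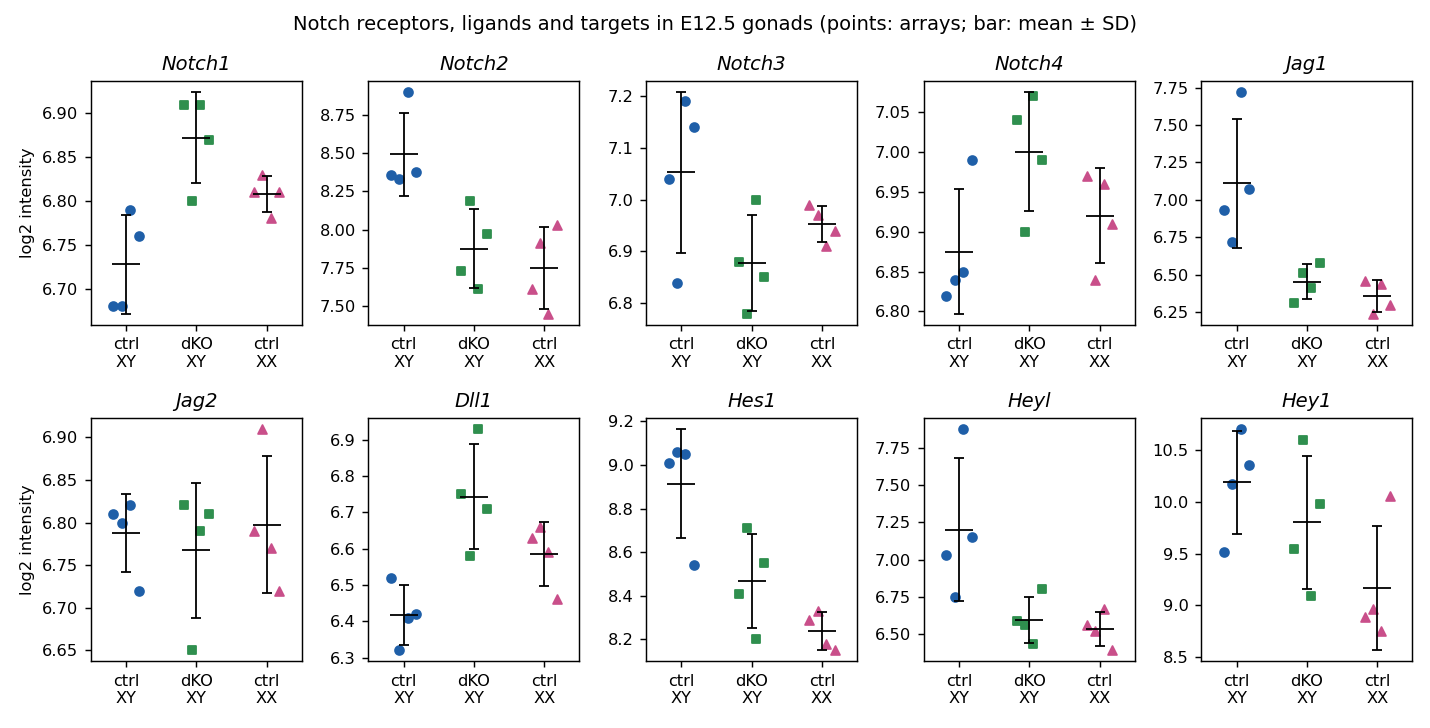
Log2 intensity of the 10 Notch genes on each of the 12 arrays, with points for single arrays and bars for the group mean and SD (n = 4). The axis of each panel has its own range. In control XY 3, Jag1 stood at 7.72 and Heyl at 7.88, above every other array, and no gene was called between dKO XY and control XX gonads.

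Jag1 encodes Jagged1, a transmembrane ligand that activates Notch receptors on the adjoining cell. The 300 bases from 250 before to 50 after its annotated start are shown because Jag1 was the gene called lower in dKO XY gonads that was also called under quantile normalization. They come from the RefSeq annotation of the mouse build GRCm38.p6, and those of Notch2, the receptor that was lower in the same comparison, are shown beside them. Capitals mark CACGCG or its reverse complement CGCGTG, the class C site bound by HES and HEY repressors, searched on both strands. The Jag1 window lies at chr2:137116471-137116770 on the minus strand, and the Notch2 window at chr3:98013288-98013587 on the plus strand.
Jag1: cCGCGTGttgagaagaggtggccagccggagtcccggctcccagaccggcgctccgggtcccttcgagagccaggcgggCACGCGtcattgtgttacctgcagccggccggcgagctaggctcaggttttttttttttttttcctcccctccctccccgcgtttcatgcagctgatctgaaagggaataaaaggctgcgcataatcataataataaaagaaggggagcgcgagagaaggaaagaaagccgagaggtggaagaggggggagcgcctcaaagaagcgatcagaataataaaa
Notch2: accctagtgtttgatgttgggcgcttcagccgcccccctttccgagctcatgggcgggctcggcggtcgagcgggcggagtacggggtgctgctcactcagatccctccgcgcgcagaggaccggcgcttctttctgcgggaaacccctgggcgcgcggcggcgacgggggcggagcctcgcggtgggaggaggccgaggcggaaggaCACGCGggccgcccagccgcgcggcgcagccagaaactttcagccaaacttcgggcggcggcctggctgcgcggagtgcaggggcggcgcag
Counted from 1 at the 5' end, the matches in the Jag1 window start at bases 2 and 80 and the match in the Notch2 window at base 209. RefSeq windows were matched for 7 of the 10 genes, 8 windows in all. CACGCG occurred in 4 of these 8, those of Jag1, Notch2, Jag2 and 1 of the 2 of Dll1, beside 9.27% of the 32851 windows of all genes. The windows of all genes were not matched to these 8 for base composition, and the 2 shares were not tested against each other. The core of the RBPJ site, GTGGGAA on either strand, occurred in 0 of the 8 and in 6.38% of all windows. The target genes Hes1, Heyl and Hey1 had no matched window, so that neither site was searched for in them. A match gives letters of the sequence and not a bound site.

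On the control XY arrays 1 to 4, Jag1 read 6.93, 6.72, 7.72 and 7.07. The dKO XY arrays read 6.31, 6.51, 6.41 and 6.58, and the control XX arrays 6.46, 6.24, 6.44 and 6.30. Every dKO XY and control XX array was below every control XY array, and the dKO XY and control XX ranges overlapped. Jag1 fell by 0.65 ± 0.18 (SE, 4 arrays a group) in the double knockout, a 1.57-fold lower intensity (adjusted p = 0.0288), and lay at -0.83 relative to the median of all clusters. The difference of control XX from control XY, -0.75 ± 0.18, did not pass (adjusted p = 0.0549), whereas after quantile normalization both did, at -0.79 (adjusted p = 0.0426) and -0.79 (adjusted p = 0.0342). The medians of the negative control probe sets lay between 6.36 and 6.52 on the dKO XY arrays and between 6.35 and 6.52 on the control XX arrays, the level at which Jag1 stood there. With its mean not above that level in control XX gonads, Jag1 was at least 1.56-fold lower there than in control XY gonads. The fall in dKO XY gonads was not called without control XY 3, control XY 4, dKO XY 1 or dKO XY 3 (adjusted p = 0.0743, 0.0569, 0.0776 and 0.079), with a difference of -0.45 without control XY 3. With the signal contrast as a covariate it was -0.47, with a 95% interval from -1.05 to 0.11.

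Of the other ligands, Dll1 encodes a Delta-like activating ligand. It read 6.52, 6.32, 6.41 and 6.42 on the control XY arrays, 6.75, 6.58, 6.93 and 6.71 on the dKO XY arrays, and 6.63, 6.66, 6.59 and 6.46 on those of control XX. Each dKO XY array was above each control XY array, with control XX overlapping both. The difference was 0.33 ± 0.11 (adjusted p = 0.042), or 0.16 relative to the median of all clusters. Its control XY mean of 6.42 was at the median of the negative controls over the arrays, 6.42. Its dKO XY arrays lay within the range of the arrays' negative control means, 6.54 to 6.95, and its control XX arrays within or below it. Under quantile normalization the Dll1 difference was 0.13 (adjusted p = 0.26). It was not called without control XY 2, 3 or 4, dKO XY 1, 3 or 4, or control XX 1 (adjusted p = 0.0956, 0.0993, 0.0786, 0.0933, 0.118, 0.071 and 0.0554). Jag2 encodes the second Jagged ligand. Its 12 arrays spanned 6.65 to 6.91, the narrowest range among the ligands, and its difference between dKO XY and control XY was -0.02 with a 95% interval from -0.22 to 0.19. That span lay within the range of the arrays' negative control means, 6.54 to 6.95.

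Among the receptors, Notch2 differed most. Its arrays read 8.36, 8.33, 8.90 and 8.38 for control XY, 7.73, 8.19, 7.61 and 7.97 for dKO XY, and 7.61, 7.91, 7.45 and 8.03 for control XX. The lowest control XY array was thus above the highest array of either other group, while dKO XY and control XX overlapped through most of their ranges. Notch2 fell by 0.62 ± 0.18 in dKO XY gonads, 1.53-fold (adjusted p = 0.0323), or -0.79 relative to the median of all clusters. The difference of control XX from control XY, -0.74 ± 0.18, did not pass (adjusted p = 0.0563). Under quantile normalization they were -0.41 (adjusted p = 0.113) and -0.58 (adjusted p = 0.104). With the signal contrast as a covariate, the dKO XY difference was -0.09, with a 95% interval from -0.47 to 0.29. In the values as deposited the fall was not called without control XY 2, 3 or 4 or dKO XY 1, 3 or 4 (adjusted p = 0.0537, 0.0972, 0.0578, 0.0844, 0.0967 and 0.0541).

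The other receptors spanned narrow ranges. Notch1 and Notch4 read within or close to the range of the arrays' negative control means, 6.54 to 6.95. Near that level, the lack of a call does not show stable expression. Notch1, a receptor used in many tissues, read 6.68, 6.68, 6.79 and 6.76 for control XY, 6.91, 6.80, 6.91 and 6.87 for dKO XY, and 6.81, 6.83, 6.78 and 6.81 for control XX. All dKO XY arrays were above all control XY arrays, by 0.14 ± 0.09 on average, and the test was not passed (adjusted p = 0.212). Relative to the median of all clusters the difference was -0.03, and under quantile normalization -0.01. Notch3, the receptor of vascular mural cells, averaged 7.05 ± 0.16 (SD, n = 4) for control XY, 6.88 ± 0.09 for dKO XY and 6.95 ± 0.03 for control XX, with overlap throughout. Its dKO XY difference of -0.17 did not pass (adjusted p = 0.2) but did when the array medians were aligned (-0.44, adjusted p = 0.0247). Notch4, a receptor of endothelial cells, ranged from 6.82 to 6.99 in control XY and from 6.90 to 7.07 in dKO XY gonads, with a difference of 0.13 (adjusted p = 0.298).

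**Figure D2:**
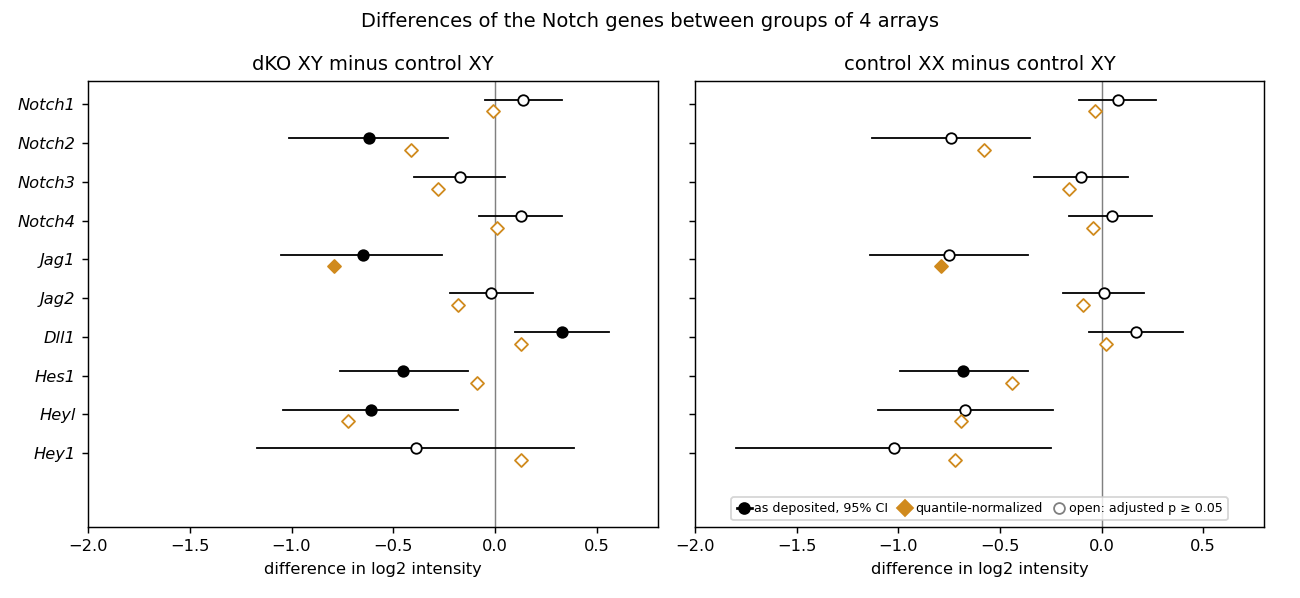
Differences in log2 intensity of the 10 genes for dKO XY minus control XY (left) and control XX minus control XY (right), n = 4 arrays per group. Circles are values as deposited with 95% confidence intervals, diamonds the quantile-normalized values, and filled symbols passed an adjusted p of 0.05. Jag1, at -0.65 and -0.75 as deposited, was the gene called with quantile normalization in both panels.

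Hes1 encodes a transcriptional repressor that is a direct target of Notch in many tissues and also responds to other signals. It read 9.01, 9.06, 9.05 and 8.54 for control XY, 8.41, 8.71, 8.20 and 8.55 for dKO XY, and 8.29, 8.33, 8.18 and 8.15 for control XX. Control XX arrays were all below control XY arrays, and the dKO XY arrays overlapped both other groups, reaching control XY through control XY 4 alone. Hes1 fell by 0.68 ± 0.15 in control XX (1.6-fold, adjusted p = 0.0337, -0.80 relative to the median of all clusters) and by 0.45 ± 0.15 in dKO XY gonads (1.36-fold, adjusted p = 0.0423, -0.62 relative to that median). Under quantile normalization neither passed, at -0.44 (adjusted p = 0.164) and -0.09 (adjusted p = 0.683). Of the 12 fits that each left out 1 array, 3 called the fall in control XX gonads, those without control XY 4, dKO XY 2 or dKO XY 3, and the adjusted p of the other 9 ran up to 0.12, without control XY 3. For dKO XY gonads 5 of the 12 called it, and those without control XY 1, 2 or 3, dKO XY 1, 3 or 4, or control XX 1 did not (adjusted p = 0.0662, 0.0958, 0.114, 0.0992, 0.122, 0.066 and 0.0552).

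Heyl and Hey1 encode related repressors of the Hes and Hey family, and Heyl is a known Notch target in mural cells. Heyl read 7.03, 6.75, 7.88 and 7.15 for control XY, 6.59, 6.56, 6.43 and 6.80 for dKO XY, and 6.56, 6.52, 6.67 and 6.39 for control XX. The dKO XY and control XY ranges overlapped at dKO XY 4 and control XY 2, and control XX lay wholly below control XY. Heyl fell by 0.61 ± 0.20 in dKO XY gonads (1.53-fold, adjusted p = 0.0415, -0.78 relative to the median of all clusters), whereas the difference of -0.67 in control XX gonads did not pass (adjusted p = 0.106). Its means there, 6.59 in dKO XY and 6.54 in control XX, lay close above the negative control medians (6.36 to 6.52 and 6.35 to 6.52). Both differences of Heyl were thus read near that level. Quantile normalization left the dKO XY difference at -0.72 with an adjusted p of 0.0511. Without control XY 3 it was -0.39 (adjusted p = 0.0956), a change of over 1.5 times, and it was also not called without control XY 4, dKO XY 1, 3 or 4, or control XX 1 or 2 (adjusted p = 0.0729, 0.0904, 0.112, 0.0561, 0.0542 and 0.0527). Hey1 was the most variable of the 10 genes within groups. It read 9.52, 10.17, 10.71 and 10.36 for control XY, 9.54, 10.60, 9.09 and 9.98 for dKO XY, and 8.89, 8.96, 8.75 and 10.06 for control XX. All 3 groups overlapped, and neither the difference of -0.39 ± 0.36 in dKO XY (adjusted p = 0.396) nor that of -1.02 ± 0.36 in control XX gonads (adjusted p = 0.155) passed. The dKO XY difference of Hey1 was 0.13 under quantile normalization.

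Between dKO XY and control XX gonads the difference of Jag1 was 0.09 with a 95% interval from -0.30 to 0.48, that of Notch2 was 0.12 with an interval from -0.27 to 0.51, and that of Heyl was 0.06 with an interval from -0.37 to 0.49. For Hes1 the difference was 0.23, with an interval from -0.08 to 0.55 (adjusted p = 0.568). Hey1 differed by 0.63, with an interval from -0.14 to 1.41 (adjusted p = 0.541). These intervals leave room for differences in either direction. With signal contrast in the model the intervals of Notch2 (0.29, from 0.02 to 0.56), Hes1 (0.34, from 0.10 to 0.59) and Hey1 (0.97, from 0.40 to 1.53) lay above 0, with dKO XY higher, but 0 of them passed after adjustment (adjusted p = 0.587, 0.411 and 0.25).

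Several of the genes moved with the signal contrast of the arrays. Over the 12 arrays, and with group differences included, Pearson's r with signal contrast was 0.87 for Notch2, 0.78 for Hes1, 0.67 for Jag1, 0.67 for Hey1 and 0.64 for Heyl. It was -0.89 for Dll1, -0.86 for Notch4 and -0.75 for Notch1, against 0.25 for Notch3 and -0.10 for Jag2. Adding the signal contrast to the limma model as a covariate left 0 clusters called between dKO XY and control XY gonads (2949 at an unadjusted p under 0.05), so that the 5 calls among these genes were all lost, and 0 of the 10 genes reached an unadjusted p under 0.05. The targeted gene Amh was not called in that fit either (adjusted p = 0.176). Signal contrast differed between the groups, so the fit cannot separate it from genotype. The lost calls are thus not particular to these genes. With dKO XY 1 and 3, the arrays of lowest signal contrast, left out, Jag1 differed by -0.56 (adjusted p = 0.292) and Notch2 by -0.41 (adjusted p = 0.331). The part of signal contrast in these differences was not tested beyond these fits.

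**Figure D3:**
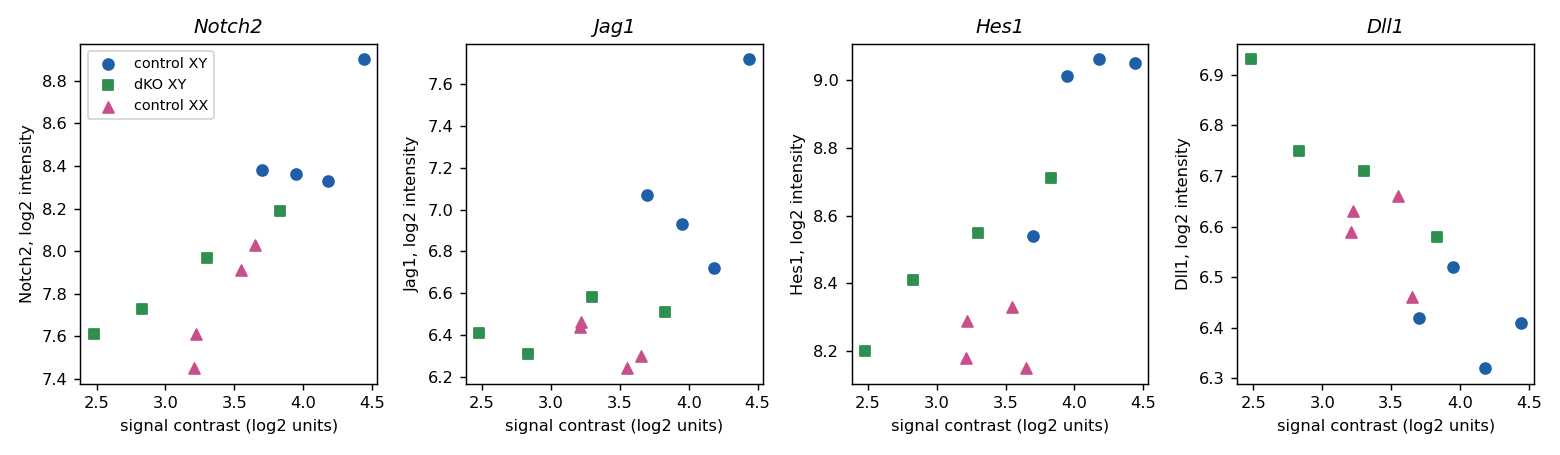
Log2 intensity of Notch2, Jag1, Hes1 and Dll1 against the signal contrast of each array (log2 units), with 4 points for each group. Control XY arrays, at 3.70 to 4.44, lie to the right of all but 1 of the dKO XY arrays and of all control XX arrays, and Notch2 (r = 0.87) and Dll1 (r = -0.89) run with the contrast in opposite directions.

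Some of the genes followed each other closely across the 12 arrays, which share the group differences and the signal contrast. Jag1 and Heyl had an r of 0.98, and 0.95 after the group means were taken out. On the dKO XY and control XX arrays both genes read at or near the negative control medians. Their r thus rests largely on the control XY arrays, with control XY 3 at 7.72 and 7.88, and was not tested without that array. Notch2 and Hey1 had an r of 0.83 over all arrays and 0.83 within groups, whereas Notch2 and Jag1 went from 0.84 to 0.52. Among 13417 symbols with a mean of at least 6, the genes most like Jag1 were Cyp17a1 (r = 0.979), which encodes the steroidogenic enzyme that makes androgen precursors in Leydig cells, Heyl (0.976) and Rab3b (0.963), a vesicle-trafficking GTPase. Cyp17a1 read 8.08, 7.71, 11.31 and 9.03 for control XY, and ranged from 6.25 to 7.10 for dKO XY and from 6.13 to 6.71 for control XX. The order of the 4 control XY arrays was the same for Cyp17a1, Jag1 and Heyl, with control XY 3 highest and control XY 2 lowest. The r of Jag1 with Cyp17a1 has the same limit as that with Heyl. Cyp17a1 fell by 2.39 ± 0.58 in dKO XY (adjusted p = 0.0237) and, with a control XX mean not above the negative control median, was at least 5.6-fold lower in control XX gonads (adjusted p = 0.0416). Without control XY 3 the dKO XY difference was -1.63, and it was not called without control XY 3, control XY 4, dKO XY 1 or dKO XY 3 (adjusted p = 0.0525, 0.0509, 0.0669 and 0.0682). The control XX difference was not called without any of the 4 control XX arrays, control XY 4, dKO XY 1 or dKO XY 4 (adjusted p = 0.0559 to 0.103).

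**Figure D4:**
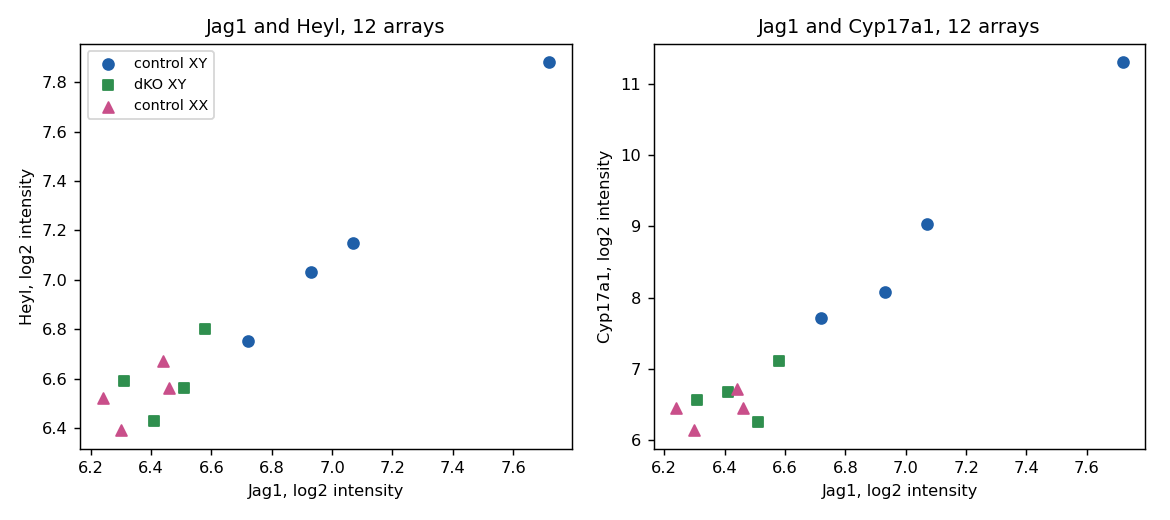
Log2 intensity of Heyl (left) and of Cyp17a1 (right) against that of Jag1 on the 12 arrays, 4 for each group. The control XY arrays spread upward to control XY 3, at 7.72 for Jag1, 7.88 for Heyl and 11.31 for Cyp17a1, and the dKO XY and control XX arrays lie together at the lower left.

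The genes most like Notch2 were Slc7a5, an amino acid transporter subunit (r = 0.988, and 0.98 within groups), Plxna1, a semaphorin co-receptor (0.987), and Sh3bp5 (0.987). Slc7a5 ranged from 10.17 to 11.16 for control XY, 8.85 to 9.88 for dKO XY and 8.69 to 9.43 for control XX. It fell in both comparisons with control XY, 2.25-fold in dKO XY (adjusted p = 0.0223) and 2.83-fold in control XX gonads (adjusted p = 0.0122). Under quantile normalization its dKO XY difference went from -1.17 to -0.67 and was not called (adjusted p = 0.0555), as it was not without control XY 3, dKO XY 1 or dKO XY 3 (adjusted p = 0.0728, 0.0657 and 0.068), while the control XX difference was called at -1.19 (adjusted p = 0.00665). For Hes1 they were Hsd11b2, which encodes an enzyme that inactivates glucocorticoids (r = 0.963), Snx7 (0.958) and Fxyd6 (0.951), a regulator of the sodium pump. Hsd11b2 ranged from 9.18 to 10.42 for control XY, 7.67 to 8.90 for dKO XY and 6.79 to 7.18 for control XX, so that the 3 groups did not overlap.

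Of 46 other genes of the pathway, 44 were measured by a cluster that carries the symbol alone. In dKO XY gonads 13 of these 44 were lower and 0 higher by limma (18 and 3 at an unadjusted p under 0.05), beside 9.8% and 16.7% of all clusters, and their median difference was -0.23 where that of all clusters was 0.17. Under quantile normalization 1 was lower and 0 higher (15 and 2 unadjusted), beside 1.48% and 1.27% of all clusters. The 1 was Neurl1b, a ligase of ligand endocytosis (-0.37, adjusted p = 0.0438), so that all 13 calls were lost, with adjusted p from 0.0515 for Psenen to 0.411 for Mib1. The medians were then -0.17 and -0.01. Of the 13, 0 were called without control XY 3, dKO XY 1 or dKO XY 3, 2 without control XY 2, 2 without control XY 4 and 4 without dKO XY 4. Of the enzymes that cut the receptor, 3 of 7 measured were lower. They were Psenen (-1.04 ± 0.22, adjusted p = 0.0212), a gamma-secretase subunit, Ncstn (-0.79, adjusted p = 0.0275), the subunit that takes up the substrate, and Adam17 (-0.60, adjusted p = 0.0345), a sheddase. After quantile normalization these read -0.51, -0.39 and -0.20. In the nuclear complex 3 of 7 were lower, namely Ep300 (-0.83, adjusted p = 0.044), a histone acetyltransferase, and the co-activators Maml1 (-0.60, adjusted p = 0.0316) and Maml3 (-0.42, adjusted p = 0.0477), with -0.20, -0.68 and -0.21 after quantile normalization. Of the repressors and turnover genes 4 of 11 were lower. Itch, an E3 ubiquitin ligase, fell by 0.76 (adjusted p = 0.0218, and -0.33 after quantile normalization), and the others were the co-repressors Spen and Tle1 and the ubiquitin ligase subunit Fbxw7. These lists hold genes that promote the pathway and genes that restrain it.

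Single genes made up the remainder. Mib1, the ubiquitin ligase that starts ligand endocytosis, fell by 0.71 (adjusted p = 0.0381), which quantile normalization took to -0.17. Poglut1, which adds glucose to the receptor, fell by 0.65 (adjusted p = 0.0243), and Dlk1, a non-canonical Delta-like protein, fell by 0.69 (adjusted p = 0.0384), with -0.54 and -0.66 after quantile normalization. In control XX gonads 1 of the 44 was lower and 0 were higher by limma (9 and 1 unadjusted), beside 1.34% and 0.608% of all clusters. It was Aph1b, a gamma-secretase subunit, with a mean of 7.01 for control XY, 7.02 for dKO XY and 6.55 for control XX. The control XX level fell by 0.46 ± 0.09 (adjusted p = 0.0263, and 0.0129 under quantile normalization), and its difference between dKO XY and control XX of 0.48 did not pass (adjusted p = 0.0798). The control XX call was lost without control XX 1 or 3 or control XY 2, 3 or 4 (adjusted p = 0.0727, 0.0908, 0.0935, 0.0536 and 0.0746).

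**Figure D5:**
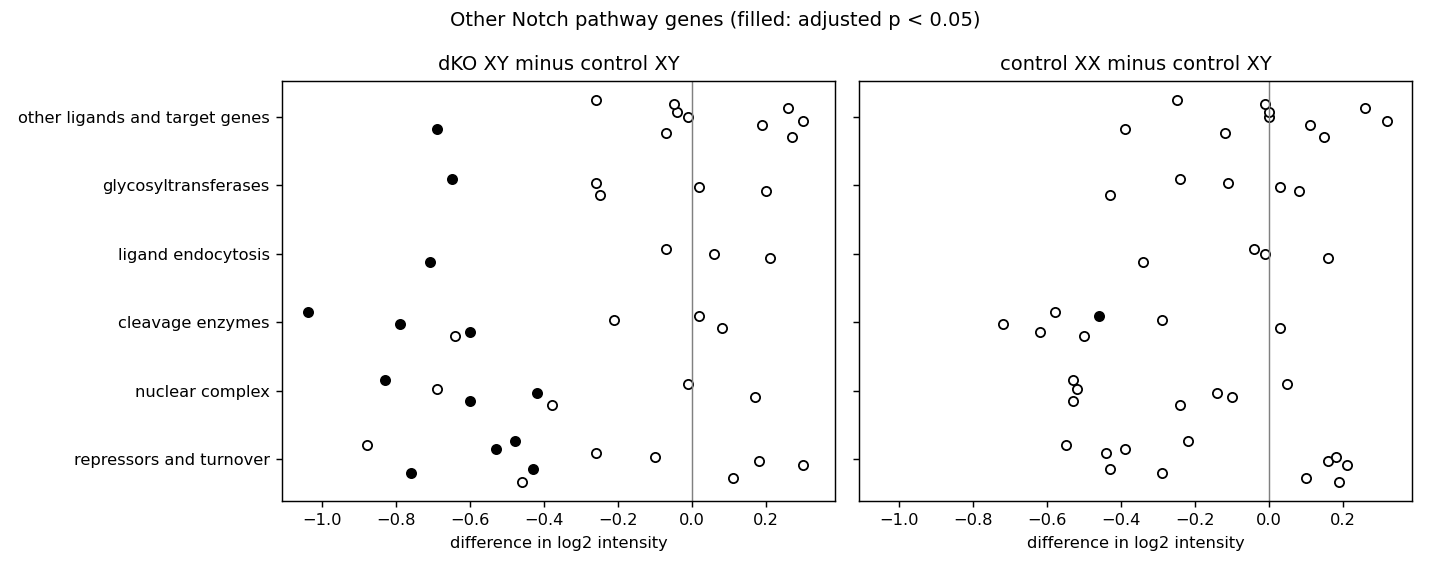
Differences in log2 intensity of the 44 other measured genes of the Notch pathway for dKO XY minus control XY and for control XX minus control XY, by sublist, with 1 point for each gene and filled points for an adjusted p under 0.05. Of the 44, 13 were lower and 0 higher in dKO XY gonads, and Psenen stood at -1.04.

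The markers of other cell types in the gonad are given beside these results, and their part in them was not tested. The values are sums of linear intensities over the measured genes of a list, with the range over the 4 arrays of a group. Counts of markers lower in dKO XY gonads stand beside 9.8% of all clusters as deposited and 1.48% after quantile normalization, and those in control XX gonads beside 1.34%. Endothelial markers summed to 4330 to 6280 in control XY, 2180 to 4250 in dKO XY and 2420 to 3560 in control XX gonads. Of 10, 4 were lower in dKO XY, 0 after quantile normalization by limma (5 at an unadjusted p under 0.05), and 0 in control XX (6 unadjusted). Interstitial progenitor markers summed to 11500 to 20300, 2780 to 6860 and 3850 to 6980 in the same order, and of 6, 5 were lower in dKO XY, 2 after quantile normalization, and 2 in control XX. Fetal Leydig markers summed to 1640 to 5910, 800 to 1010 and 700 to 1260, with 2 of 5 lower in dKO XY, 1 after quantile normalization, and 2 in control XX. Pericyte and smooth muscle markers summed to 1810 to 5770, 1200 to 1500 and 1310 to 1990, with 1 of 8 lower (Acta2, smooth muscle actin) in either comparison, a share near that of all clusters in dKO XY. Control XY 3 stood apart in both lists, and without it the control XY sums reached 1840 for fetal Leydig and 2060 for pericyte and smooth muscle markers. The same array was also highest among control XY for endothelial (6280, the others up to 4620) and interstitial progenitor markers (20300, the others up to 13800). Its signal contrast, 4.44, was the highest of the 12 arrays. Its Jag1, Heyl, Notch2, Notch3, Hey1, Amh and Inhbb were also the highest. Its Notch1, Notch4, Jag2, Dll1 and Hes1 were not.

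Sertoli markers, which include the targeted gene Amh, summed to 112000 to 235000 in control XY, 27400 to 74400 in dKO XY and 958 to 1240 in control XX gonads. Of 9, 5 were lower in dKO XY (Amh, Cst9, Ptgds, Hsd17b3 and Sox8), 3 after quantile normalization (Amh, Ptgds and Hsd17b3), and 8 in control XX. Cst9 was the brightest, with means of 17.21 in control XY and 15.34 in dKO XY, beside 11.66 and 5.75 for Amh. Macrophage markers summed to 566 to 651, 644 to 870 and 712 to 793, with 2 of 5 higher in dKO XY (Adgre1 and Fcgr1), beside 16.7% of all clusters. After quantile normalization 0 of the 5 were higher. At or below the negative control median were 3 in control XY (Csf1r, Adgre1 and Fcgr1) and 2 in either other group (Csf1r and Adgre1). Mesonephros markers summed to 217 to 244, 260 to 309 and 253 to 282. All 4 measured were at or below the negative control median in control XY gonads, 2 in dKO XY and 3 in control XX, and 2 of the 4 were higher in dKO XY gonads, Pax8 by 0.42 (adjusted p = 0.0304) and Cdh16 by 0.48 (adjusted p = 0.0244).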

How the data were processed

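Log2 intensities of Affymetrix Clariom D mouse arrays were deposited by the authors. Per the study's methods, RNA was amplified and the values were normalized by RMA, but the exact summary behind the table is not given in the sources used here. The values were used as deposited. Of 65956 transcript clusters, 30638 carry 1 gene symbol, 2176 several and 33142 none, by the platform annotation. Values ran from 2.79 to 19.93, and arrays of a group correlated at 0.974 to 0.992. The number of arrays limits the precision.

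All 12 arrays were fitted with limma 3.58.1 in R 4.3.3 as 3 group means, with moderated variances and Benjamini-Hochberg adjustment over all clusters, at a threshold of 0.05. The fit was tested on simulated data. Signal contrast was compared by exact permutation over 70 arrangements. Alternatives were quantile normalization, signal contrast as a covariate, the replicate number as a block, only the groups compared, clusters above the negative control median, no variance moderation, an added 2-fold threshold and leaving out each array. Alignment of the array medians and leaving out dKO XY 1 and 3 were added after the data were seen. Figures were drawn in Python 3.11.15 (matplotlib 3.10.9).

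Beside the 10 genes, Amh and Inhbb, up to 4 genes past the threshold were named for each pathway sublist, as were marker genes, and the 3 symbols most correlated with each of the 3 members of largest change past the test. The members and lists were chosen with earlier results of these data known.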

Additional observations from a re-analysis of the deposited data

Results flagged for a closer look

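In groups of 4 arrays, 5 of the 33 groups examined (the 10 genes and the signal contrast in 3 groups) held an array whose gap to the nearest other was above Dixon's critical value for 4 samples. Chance gives such a gap in about 1 in 20 groups. Notch2 stood at 8.90 on control XY 3, with the other control XY arrays between 8.33 and 8.38. Hes1 stood at 8.54 on control XY 4, below the others at 9.01 to 9.06. Hey1 stood at 10.06 on control XX 4, above the others at 8.75 to 8.96. Notch4 stood at 6.99 on control XY 4, above 6.82 to 6.85, and Jag2 at 6.72 on the same array, below 6.80 to 6.82. Control XY 4 thus held 3 of the 5.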

How the results depend on the processing

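Of the 6 calls among the 10 genes, 0 held under all 8 settings tried for them beside the fits that each left out 1 array. For the dKO XY calls this count could not be other than 0. The fit with signal contrast as a covariate called 0 of all clusters in that comparison. Quantile normalization gave 1810 clusters changed between dKO XY and control XY and 235 between dKO XY and control XX. For dKO XY minus control XY it gave Notch2 -0.41, Dll1 0.13, Hes1 -0.09 and Heyl -0.72, none of them called any longer, and it turned the sign of Notch1 (-0.01) and Hey1 (0.13). For control XX minus control XY, Jag1 was now called (-0.79), Hes1 no longer (-0.44), and the signs of Notch1 (-0.03), Notch4 (-0.04) and Jag2 (-0.09) turned, as did that of Heyl between dKO XY and control XX (-0.03). With signal contrast as a covariate, 0, 391 and 235 clusters were changed in the 3 comparisons (dKO XY minus control XY, control XX minus control XY, dKO XY minus control XX). The dKO XY calls were lost, at -0.09 for Notch2, -0.47 for Jag1, 0.13 for Dll1, -0.08 for Hes1 and -0.42 for Heyl, and Notch4 (-0.01) and Hey1 (0.68) turned. The call of the targeted gene Amh was lost as well (adjusted p = 0.176). In control XX gonads Hes1 was lost (-0.43), and Notch4 (-0.04) and Jag2 (-0.02) turned.

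With only the groups compared, 10849 and 43 clusters were changed between dKO XY and control XY and between dKO XY and control XX, and the dKO XY calls of Jag1 (-0.65), Dll1 (0.33), Hes1 (-0.45) and Heyl (-0.61) were lost. Among clusters above the negative control median, 9757 were changed between dKO XY and control XY, fewer being tested, and Notch2 (-0.74) and Jag1 (-0.75) were called lower in control XX. Without variance moderation 6958, 787 and 34 clusters were changed. Notch1 (0.14) was then called in dKO XY, and Notch2 (-0.62), Jag1 (-0.65), Hes1 (-0.45) and Heyl (-0.61), with Hes1 in control XX (-0.68), were lost. An added 2-fold threshold left 2824 and 649 clusters in the comparisons with control XY. With the array medians aligned, 54 clusters were changed between dKO XY and control XX. In dKO XY, Notch3 (-0.44) was called, Dll1 (0.06) was lost, and Notch1 (-0.12) and Notch4 (-0.14) turned. In control XX, Jag1 (-0.92) was called, and Notch1 (-0.09), Notch4 (-0.12), Jag2 (-0.16) and Dll1 (-0.01) turned. Between dKO XY and control XX, Notch1 (-0.03), Notch4 (-0.01) and Heyl (-0.03) turned. Without dKO XY 1 and 3, 4 and 66 clusters were changed between dKO XY and control XY and between dKO XY and control XX. Notch2 (-0.41), Jag1 (-0.56), Dll1 (0.23), Hes1 (-0.28) and Heyl (-0.53) were lost, Hey1 (0.1) turned, and Notch2 was called in control XX (-0.74). The cause of these changes was not tested.

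Samples of the same replicate number did not deviate together (r from -0.41 to 0.37, 2 arrays closest to their own number), so the numbers were not read as pairs. With the replicate block, Dll1 in dKO XY (0.33, adjusted p = 0.0602) and Hes1 in control XX (-0.68, adjusted p = 0.0552) were no longer called, and no other call among the 10 genes changed. Each gene had 1 cluster, so a mean over clusters gave no other value.

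Leaving out each array in turn gave 78 to 28065, 569 to 1821 and 36 to 211 clusters in the 3 comparisons. For dKO XY minus control XY the differences ran for Notch1 from 0.13 to 0.17, Notch2 from -0.72 to -0.48, Notch3 from -0.25 to -0.13, Notch4 from 0.1 to 0.16, Jag1 from -0.78 to -0.45, Jag2 from -0.04 to 0.02, Dll1 from 0.26 to 0.38, Hes1 from -0.57 to -0.36, Heyl from -0.76 to -0.39, Hey1 from -0.66 to -0.15 and signal contrast from -1.2 to -0.75. For control XX minus control XY the differences ran for Notch1 from 0.06 to 0.1, Notch2 from -0.83 to -0.6, Notch3 from -0.17 to -0.06, Notch4 from 0.03 to 0.09, Jag1 from -0.88 to -0.54, Jag2 from -0.03 to 0.04, Dll1 from 0.13 to 0.21, Hes1 from -0.8 to -0.63, Heyl from -0.82 to -0.44, Hey1 from -1.32 to -0.85 and signal contrast from -0.78 to -0.53. For dKO XY minus control XX the differences ran for Notch1 from 0.05 to 0.09, Notch2 from 0.02 to 0.22, Notch3 from -0.11 to -0.04, Notch4 from 0.05 to 0.11, Jag1 from 0.05 to 0.14, Jag2 from -0.05 to 0.01, Dll1 from 0.1 to 0.22, Hes1 from 0.15 to 0.32, Heyl from -0.01 to 0.11, Hey1 from 0.37 to 0.93 and signal contrast from -0.54 to -0.09. The signal contrast of control XX passed the permutation test in 3 of its 8 such fits, which with 3 against 4 arrays allow few arrangements. For arrays, precision is set by their number, and Jag1 in dKO XY and control XX gonads and Dll1 in control XY gonads lay at the level of the negative control medians. Heyl in dKO XY and control XX gonads lay close above that level. Dll1 in dKO XY gonads lay within the range of the negative control means.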
